A study of Mus musculus with 16 samples.

Results

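Immunoglobulin constant region transcripts were described across 4 myeloid populations sorted from the tissue around a tendon graft. The members are Ighm, Ighg1, Ighg2b and Ighg3 (heavy chain constant genes), Igkc (the kappa light chain constant gene) and Jchain (the joining chain), which are 6 of the 20200 genes in the table of raw counts. They were taken by their gene names, and they had been picked because their levels were seen to differ between days and populations. Their levels are therefore described here without a test.

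The study sorted cells from the bone tunnels of C57BL/6 WT mice, 12-week-old males by its methods, after anterior cruciate ligament reconstruction (ACLR), an operation that pulls a tendon graft through tunnels drilled in bone. Cells were taken on day 1 or day 14 after surgery. All 8 groups had the same operation, and no unoperated tissue is among these libraries. The sort kept live CD45+ cells without lineage markers, and the antibodies of that lineage gate included one to B220, a surface protein of B cells, and one to CD3, of T cells. CD9+ macrophages were Ly6G-, CD11b+, F4/80+ and CD9+. CX3CR1+ macrophages were F4/80+ and CX3CR1+ but CD9-. The other groups were F4/80- myeloid cells (Ly6G-, CD11b+) and neutrophils (Ly6G+, Ly6C+). Each group had 2 libraries, called pool 1 and pool 2 here, 16 in all. Each pool held cells of 5 to 7 mice, so the 2 values of a group show the spread between pools and not between mice. The rare cells with both CD9 and CX3CR1 were in the CD9+ sort.

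An antibody is made of heavy and light chains. The constant part of the heavy chain sets the class: Ighm encodes that of IgM, the first class that a B cell makes, and the Ighg genes encode the IgG subclasses, which B cells reach by class switching, a cut and rejoining of the DNA. Plasma cells are the end stage of the B lineage. They carry very large amounts of these mRNAs, have lost most B cell surface proteins, and express Jchain, the small protein that links IgM or IgA into polymers. Macrophages and neutrophils bind antibodies through Fc receptors and are not counted among the antibody producers.

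The IgG genes are closely related in sequence, so whether reads can be told apart matters for every value of a subclass. They differ most in the hinge, the flexible stretch between the antigen-binding arms and the stem of the antibody. The hinge exons of the members, with that of Ighg2c, the IgG gene of this strain that is no member, are shown for that reason. They were read from Gencode M21 transcripts (mm10), lie on the minus strand of chromosome 12, and are printed 5′ to 3′ with the in-frame cysteine codons in capitals.
Ighg1, chr12:113329844-113329882: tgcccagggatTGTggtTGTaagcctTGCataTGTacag
Ighg2b, chr12:113307261-113307326: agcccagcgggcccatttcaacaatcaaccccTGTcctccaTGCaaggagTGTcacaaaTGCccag
Ighg2c, chr12:113288263-113288325: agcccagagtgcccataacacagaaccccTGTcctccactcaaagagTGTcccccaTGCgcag
Ighg3, chr12:113360529-113360576: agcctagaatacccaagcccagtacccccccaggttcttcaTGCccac
The exons are 39, 66, 63 and 48 bases long and hold 4, 4, 3 and 1 such codons. Over the whole transcripts, 0.393% of the 50-base windows of Ighg1 and 1.58% of those of Ighg3 occurred in a transcript of another gene. The share was 4.15% for Ighg2b, which shares windows with all 3 other IgG genes, and 5.49% for Ighg2c, all with Ighg2b. No window of Ighm or Igkc was shared. A small share of Ighg2b and Ighg2c reads could thus be split between these genes, and the counting of such reads is not given in the sources used here.

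In the files' coordinates (mm10), Ighm lies at chr12:113418558-113422730, Ighg3 at chr12:113356224-113361232, Ighg1 at chr12:113325240-113330523 and Ighg2b at chr12:113302965-113307933, all within the heavy chain locus on the minus strand. Igkc is at chr6:70726435-70726966 on the plus strand and Jchain at chr5:88519809-88527891 on the minus strand. In Gencode M21, Igkc overlaps the lincRNA Gm30211 on the same strand, and none of the other 5 members overlaps another gene.

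Total counts ran from 10587857 to 19814119 on day 1 and from 9233952 to 12721779 on day 14. Levels are given as CPM, a gene's count per unit of the library's total after scaling with TMM factors, where 3 counts in a library correspond to between 0.134 and 0.352 CPM. Genes with a mean of at least 3 CPM in at least 1 group were fitted with edgeR, 12031 in all, and a gene was called at a Benjamini-Hochberg adjusted p under 0.05 where the log2 fold change was also 1 or more in size. All 6 members passed that filter, which a member could do through the group where it is high. The marker genes followed the labels between the populations that each gate separates: Adgre1, the gene of F4/80, was at 121 to 219 CPM in both macrophage populations and at 8.53 to 13.9 CPM in F4/80- cells. Cd9 was at 6.53 to 21.2 CPM in CX3CR1+ macrophages against 142 to 185 CPM in CD9+ macrophages. It did not mark CD9+ macrophages alone. Its highest value, 647 CPM, was in neutrophils, and on day 14 it was also higher in F4/80- cells than in CX3CR1+ macrophages. Ly6g was at 78.0 to 279 CPM in neutrophils against at most 10.3 CPM elsewhere. The CD9+ libraries of day 1 were the least alike of the 8 pairs (Pearson r = 0.935 across genes, against 0.976 to 0.988 in the other 7), so the changes over time in CD9+ macrophages are also given without each of them where that moves a value or a call.

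Ighm, the IgM heavy chain, was detected in every library, on day 1 as well as day 14. CD9+ macrophages had 737 and 313 CPM on day 1 and 874 and 937 CPM on day 14. CX3CR1+ macrophages had 213 and 184 CPM on day 1 and 194 and 186 CPM on day 14. F4/80- cells had 593 and 450.0 CPM on day 1 and 283 and 334 CPM on day 14, with both day 14 pools below both day 1 pools. Neutrophils had 48.1 and 45.7 CPM on day 1 and 102 and 118 CPM on day 14, the lowest values of each day. On day 14 the order CD9+, F4/80-, CX3CR1+, neutrophils had no overlap between neighbours, and on day 1 the CD9+ and F4/80- pools overlapped.

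Igkc, the kappa light chain, was also highest in CD9+ macrophages and F4/80- cells. CD9+ macrophages had 421 and 151 CPM on day 1 and 705 and 536 CPM on day 14. F4/80- cells had 251 and 182 CPM on day 1 and 362 and 221 CPM on day 14, so the days overlapped, as did the day 1 pools of these 2 populations. CX3CR1+ macrophages had 32.5 and 57.9 CPM on day 1 and 30.8 and 25.4 CPM on day 14. Neutrophils had the lowest values of all on day 1, 1.14 and 6.03 CPM, and 34.8 and 27.9 CPM on day 14, when they overlapped with CX3CR1+ macrophages.

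Jchain, the joining chain, was likewise highest in CD9+ macrophages and F4/80- cells, whose pools overlapped on day 1. CD9+ macrophages had 85.2 and 36.4 CPM on day 1 and 185 and 150.2 CPM on day 14. F4/80- cells had 90.7 and 65.8 CPM on day 1 and 139 and 74.2 CPM on day 14. CX3CR1+ macrophages had 14.0 and 15.3 CPM on day 1 and 7.24 and 5.69 CPM on day 14, the later pools lying below the earlier ones. In neutrophils Jchain stood at 1 and 12 counts on day 1 and at 85 and 100 counts on day 14, or 9.97 and 10.1 CPM, just above both CX3CR1+ pools of that day.

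**Figure D1:**
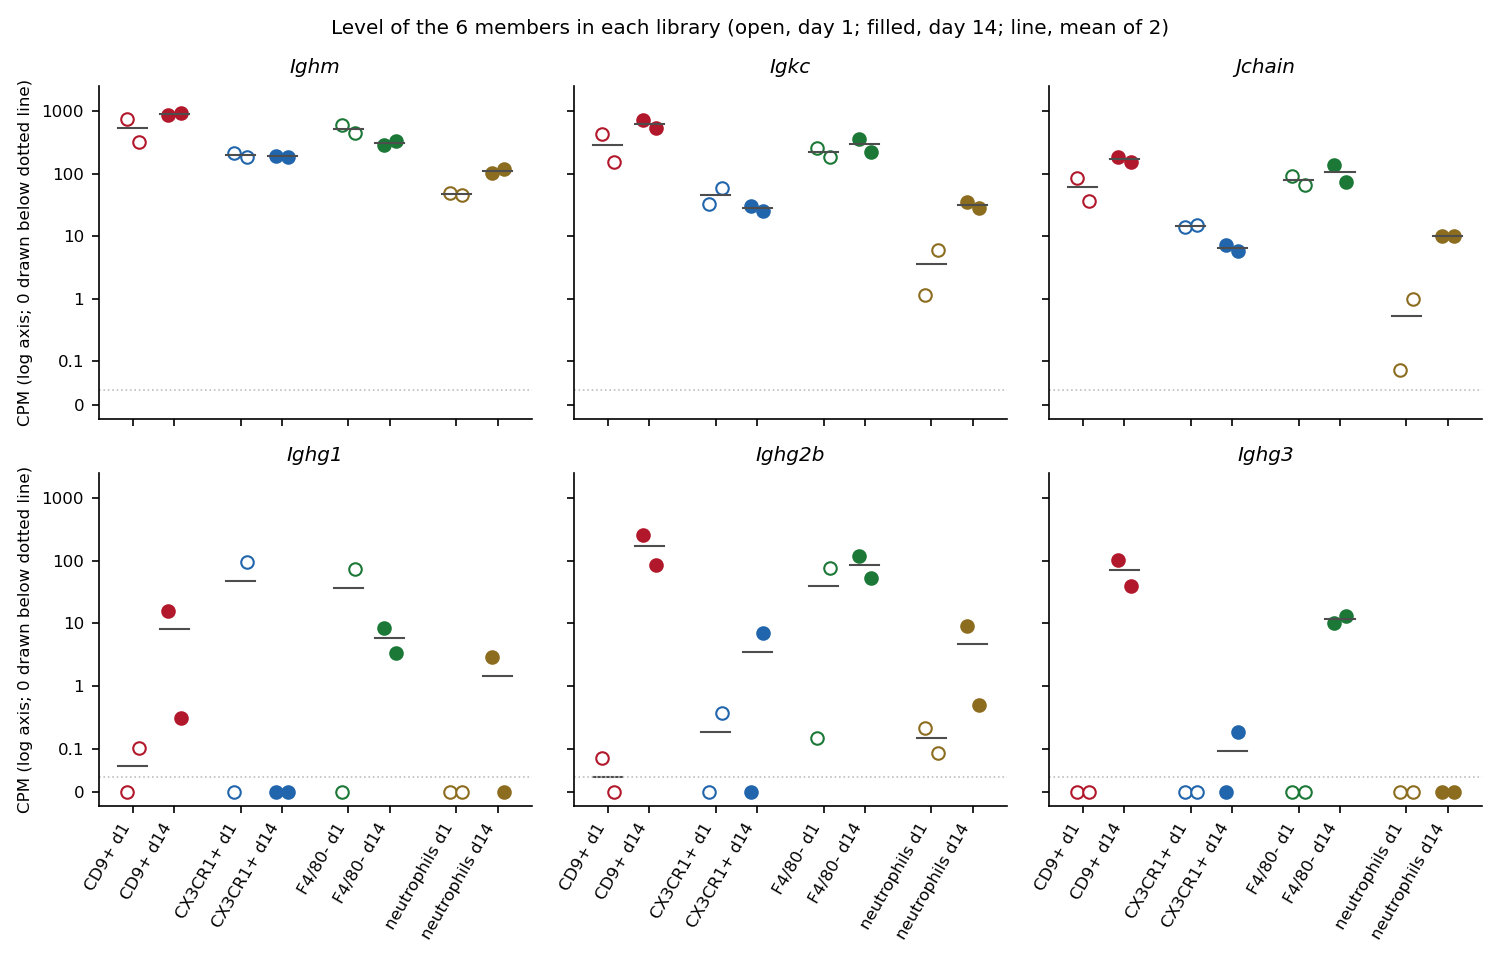
Level of each member in each library, in CPM on a log axis, for the 4 populations on day 1 (open points) and day 14 (filled points), with a line at the mean of the 2 libraries of a group and values of 0 drawn below the dotted line. Ighm, Igkc and Jchain are present on both days in all populations and highest in CD9+ macrophages of day 14, whereas Ighg3 is at 0 in all 8 libraries of day 1.

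The IgG genes behaved differently from Ighm, Igkc and Jchain: on day 1 each was high in a single pool of a population or absent. Ighg3 had no count in any of the 8 day 1 libraries, which allows up to 0.312 CPM in the library with the highest floor. On day 14 it had 1075 and 389 counts in CD9+ macrophages (103 and 39.7 CPM) and 136 and 157 counts in F4/80- cells (10.1 and 13.0 CPM). CX3CR1+ macrophages had 0 and 2 counts of it on day 14 and neutrophils had none.

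Ighg2b had 1 and 0 counts in CD9+ macrophages on day 1 and 2694 and 833 counts on day 14 (258 and 85.1 CPM). In F4/80- cells it was already high in 1 of 2 day 1 pools, with 3 and 1675 counts, and had 1605 and 638 counts on day 14. In CX3CR1+ macrophages the counts were 0 and 7 on day 1 and 0 and 76 on day 14. In neutrophils they were 3 and 1 on day 1 and 77 and 5 on day 14. Both day 14 pools of CD9+ macrophages and F4/80- cells thus held Ighg2b, while CX3CR1+ macrophages and neutrophils had it in 1 pool or at a trace.

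Ighg1 was the least regular member. Its highest counts were in the second day 1 pool of CX3CR1+ macrophages, 1792 (94.3 CPM), and in the second day 1 pool of F4/80- cells, 1594 (73.9 CPM), while the first pool of each had 0. The 2 libraries with high counts carry the same pool number and may share mice, so they may not be separate occurrences. On day 14 it had 167 and 3 counts in CD9+ macrophages, 112 and 40 in F4/80- cells, 25 and 0 in neutrophils and 0 and 0 in CX3CR1+ macrophages. Of the 8 libraries of a day, 2 held more than 3 counts of Ighg1 on day 1 and 4 on day 14. For Ighg2b it was 2 and 7, and for Ighg3 it was 0 and 4.

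Between days, CD9+ macrophages had both day 14 libraries above both day 1 libraries for all 6 members. Of all 12031 genes tested, 26.7% lay above in this way in that comparison. The ratio of the group means was 1.73 for Ighm (log2 fold change 0.79, SE 0.27), 2.17 for Igkc (1.11, SE 0.45) and 2.76 for Jchain (1.46, SE 0.37). Against a floor of 3 counts per library, the day 14 mean was at least 653-fold higher for Ighg2b, at least 272-fold for Ighg3 and at least 31.0-fold for Ighg1, the last with 3 counts in the second day 14 pool. The log2 fold changes of Ighm, Igkc and Jchain depend on which day 1 pool is used. Without the first they were 1.51, 2.02 and 2.19, and without the second 0.31, 0.57 and 0.99. Scaling by library size alone shifted the median of all genes in this comparison by 0.18 on the log2 scale, and gave no change of direction for a member in it.

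In neutrophils, 4 of 6 members lay above in both day 14 libraries (33.1% of all genes did). The ratio of means was 2.34 for Ighm, 8.74 for Igkc and 18.6 for Jchain, with 1 to 72 counts of Igkc and Jchain in the day 1 libraries. The log2 fold changes of the latter 2, 3.17 and 4.28, were 2.35 and 3.28 without the first day 1 pool and 4.73 and 6.93 without the second. CX3CR1+ macrophages had 0 members above and 2 below, where 29.9% of all genes lay below. These were Igkc, 1.61-fold lower, and Jchain, 2.26-fold lower. The Igkc log2 fold change of -0.68 was -1.04 without the first day 1 pool and -0.21 without the second. The Ighm pools of the 2 days overlapped. F4/80- cells had 1 member above, Ighg3, and 1 below, Ighm, which was 1.69-fold lower (30.8% and 30.6% of all genes). Their Igkc and Jchain means were 1.35-fold and 1.36-fold higher on day 14 with overlapping pools, and without the first day 14 pool the log2 fold changes were 0.03 and -0.08. The members were chosen on these contrasts, so the shares of all genes are given as background and nothing is read from them. In sorted bulk samples, more cells of a kind and more RNA per cell cannot be told apart.

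Between populations on day 14, all 6 members were higher in both CD9+ libraries than in both CX3CR1+ libraries (34.0% of all genes). The ratio of means was 4.77 for Ighm, 22.1 for Igkc and 25.9 for Jchain, 48.4 for Ighg2b, and at least 262 for Ighg3 and at least 29.9 for Ighg1. The value of Ighg1 rests on the first CD9+ pool, since the second held 3 counts, and no such bound holds without the first. The ratio of Ighg2b rests on the second CX3CR1+ pool, with 76 counts, since the first had none. Against F4/80- cells, 4 of 6 members were higher in both CD9+ libraries (31.0% of all genes), with ratios of 2.94 for Ighm, 2.13 for Igkc, 1.57 for Jchain and 6.18 for Ighg3. The Jchain log2 fold change of 0.65 was 1.18 without the first F4/80- pool of day 14 and 0.27 without the second. Ighg1 and Ighg2b overlapped. All 6 members were lower in both CX3CR1+ libraries than in both F4/80- libraries (36.3% of all genes), by 1.62-fold for Ighm, 10.4-fold for Igkc and 16.5-fold for Jchain. These comparisons share libraries and are not independent of one another.

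Relative to the merged length of a gene's annotated exons, the order of the members differed between populations. Igkc has 1 annotated transcript and each other member 2, so their merged length can exceed that of a single transcript, which lowers the value. In CD9+ macrophages on day 14, Igkc had 1166 ± 226 CPM per kilobase of exon (SD, n = 2), Ighm 480.2 ± 23.6, Jchain 66.6 ± 9.74, Ighg2b 64.1 ± 45.7, Ighg3 28.4 ± 17.8 and Ighg1 3.15 ± 4.28. F4/80- cells had the same leading order, with Igkc at 549 ± 188 and Ighm at 163 ± 19.1. In CX3CR1+ macrophages Ighm led instead, at 100.7 ± 2.88 against 52.8 ± 7.25 for Igkc. In neutrophils the 2 genes were level on day 14, with Ighm at 58.3 ± 5.76 and Igkc at 58.9 ± 9.25, and on day 1 Ighm was at 24.9 ± 0.876 and Igkc at 6.74 ± 6.49.

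The same shift is seen in the share of Igkc among Igkc and Ighm counts, which needs no scaling between libraries. It was 32.6% to 44.7% in the 4 CD9+ libraries and 28.8% to 56.2% in the 4 F4/80- libraries. It was 11.99% to 23.9% in CX3CR1+ macrophages, with no overlap with either. For neutrophils the day 1 pools had 2.33% and 11.7% and the day 14 pools 25.4% and 19.2%. The Wilson 95% intervals of these last 4 values were 1.44% to 3.74%, 9.35% to 14.4%, 22.99% to 27.98% and 17.2% to 21.3%. Such intervals cover counting error only. Jchain made up 16.8% to 30.1% of Jchain and Igkc counts in the 12 libraries outside neutrophils. In neutrophils it made up 22.3% and 26.5% on day 14, and on day 1 5.88% (1 of 17 counts) and 14.3% (12 of 84 counts).

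**Figure D2:**
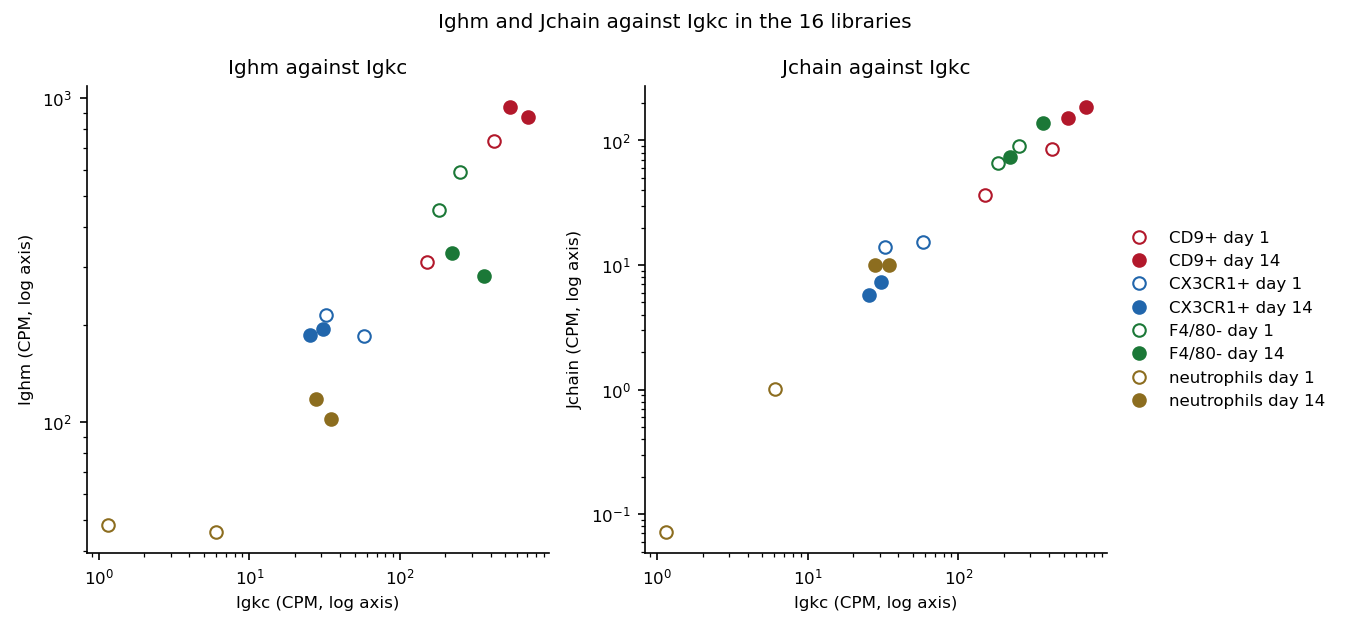
Ighm (left) and Jchain (right) against Igkc in the 16 libraries, in CPM on log axes, with open points for day 1 and filled points for day 14. Jchain makes up 16.8% to 30.1% of Jchain and Igkc counts outside neutrophils of day 1, where it has 5.88% and 14.3%, while Ighm stands higher for its Igkc in CX3CR1+ macrophages and neutrophils than in CD9+ and F4/80- cells.

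Over the 16 libraries, log2 CPM of Igkc and Jchain had a Pearson r of 0.991 (Spearman rho 0.976), Ighm and Igkc of 0.934 (rho 0.900) and Ighm and Jchain of 0.916 (rho 0.891). The IgG genes followed them less closely, with r of 0.2501 to 0.590 with Ighm, Igkc and Jchain. Ighg2b and Ighg3 had r = 0.798 (rho 0.520) with each other and Ighg1 and Ighg3 r = 0.339 (rho 0.290). The points share population, day and pool, so these values describe the 16 libraries only.

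The genes outside the immunoglobulin loci with the most similar pattern were led for Igkc by Scap (r = 0.925), which carries the sterol-regulated factors SREBP to the Golgi, and by Kif18b, Cdc20, Hmgb3 and Sgo2a (r = 0.914 to 0.924). Jchain had Kif18b (r = 0.935), Sgo2a, Cdc20, Sfmbt1 and Hmgb3. Kif18b, Cdc20 and Sgo2a act in mitosis. For Ighm they were Mphosph10 (r = 0.953), Scap, Rnf144b, and the mitotic genes Ccnb1 and Cenpf. Cdc20 had 50.8 to 64.4 CPM in CD9+ macrophages, 51.9 to 58.5 CPM in F4/80- cells, 32.4 to 44.1 CPM in CX3CR1+ macrophages and 14.3 to 34.6 CPM in neutrophils. No gene followed Ighg1 as closely: Hdac8 (r = 0.712), Mrnip, Gm23849, Gm36989 and Fitm2 (r = 0.633) were nearest.

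Other constant genes showed which classes accompanied the members. Ighg2c, the remaining IgG gene, had 3788 and 0 counts in CD9+ macrophages on day 1, and its day 14 pools held 927 and 516. Igha, of IgA, had 0 and 612 counts in CD9+ macrophages on day 1, and its day 14 counts there were 1446 and 910. The day 1 pool with Ighg2c thus had no Igha, and the pool with Igha had no Ighg2c. In F4/80- cells Igha had 2768 and 1075 counts on day 1, and its day 14 counts were 3841 and 1751, so Igha transcripts were present there in both pools of both days. Ighe, of IgE, had no count on day 14 and at most 30 in a library on day 1.

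Ighm took the largest share of the heavy chain constant counts in every library except the first F4/80- pool of day 14, where Igha had 38.8% and Ighm 38.5%. The share of Ighm was 59.1% to 83.1% in CD9+ macrophages, 65.6% to 99.7% in CX3CR1+ macrophages, 38.5% to 81.3% in F4/80- cells and 77.2% to 99.6% in neutrophils. The 4 IgG genes made up 26.8% and 0.0276% in the CD9+ pools of day 1, and the CD9+ pools of day 14 had 31.5% and 14.7%. In the CX3CR1+ pools they made up 0.0208% and 33.8% on day 1, followed by 0% and 6.22% on day 14, so the 2 pools of a group could differ widely. Igha was 38.8% and 25.3% in F4/80- cells of day 14, against at most 16.9% in a CD9+ library and 1.66% in a CX3CR1+ library. The kappa share of light chain constant counts was 71.0% to 99.5% over all libraries.

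**Figure D3:**
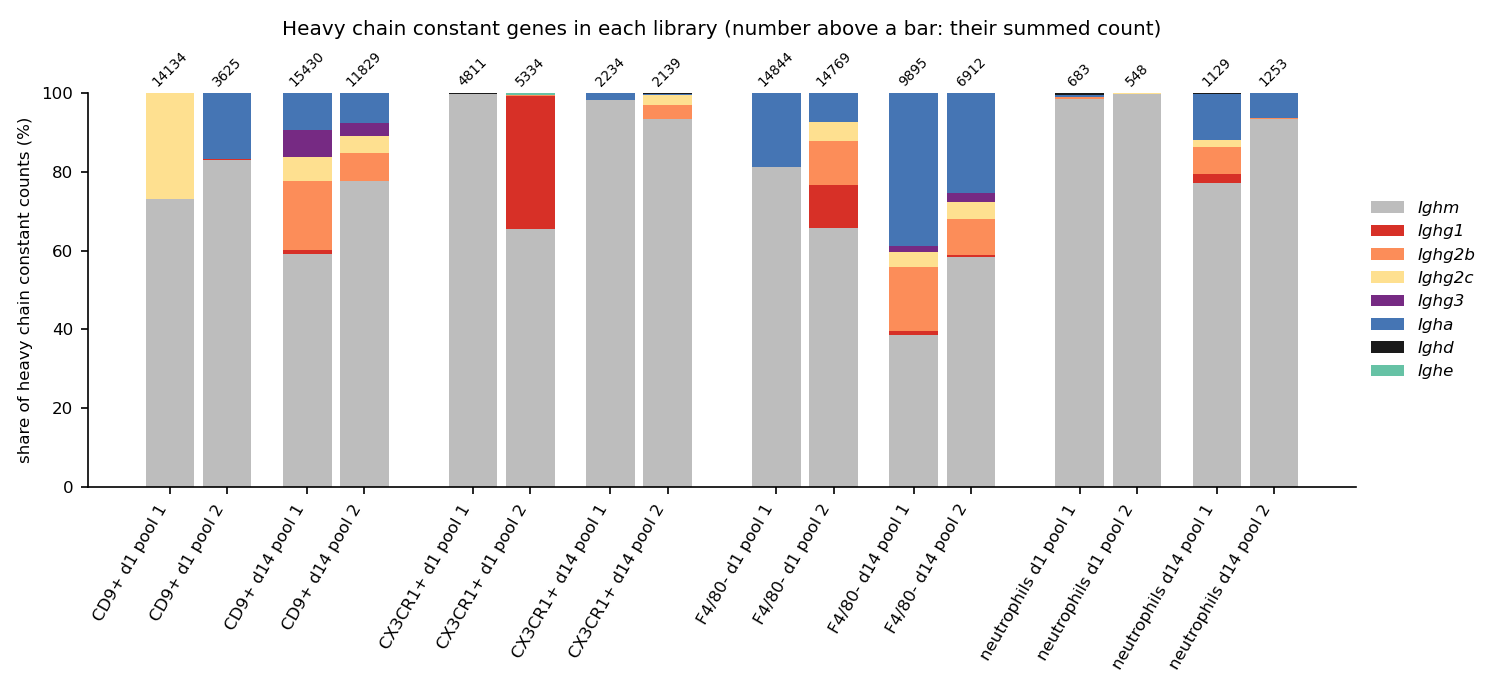
Share of each heavy chain constant gene in the heavy chain constant counts of each library, in percent, with the summed count above each bar. Ighm takes 38.5% to 99.7% of the counts, the IgG genes change between the 2 pools of a group, and Ighg3 is seen in day 14 libraries only.

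In the edgeR fit, 5 of the 7 other constant genes in the table were tested. Iglc1, a lambda light chain gene, rose in CD9+ macrophages from a mean of 0.676 to 34.8 CPM (log2 fold change 5.48, SE 0.69, adjusted p = 0.00016), as did Iglc2 (5.56, SE 1.26, adjusted p = 0.0076), and the other 3 were not called. In this contrast 8.15% of all genes were called. Igha and Iglc1 were called higher over time in neutrophils, where 14.2% of all genes were called. The call of Igha there was lost in 10 of 22 alternatives, each of them a fit without 1 library. None of the 5 was called over time in CX3CR1+ macrophages or F4/80- cells (5.88% and 3.27% of all genes were). On day 14 Igha, Iglc1, Iglc2 and Iglc3 were higher in CD9+ than in CX3CR1+ macrophages and lower in CX3CR1+ macrophages than in F4/80- cells. Of all genes, 14.1% were called in the former contrast and 21.3% in the latter. For Igha the means were 116, 1.68 and 215 CPM (log2 fold changes 6.07, SE 1.41, adjusted p = 0.0046, and -6.97, SE 1.43, adjusted p = 0.0012). Between CD9+ and CX3CR1+ macrophages, Igha lost its call without the second CX3CR1+ pool, Iglc2 without the first, and Iglc3 in 3 alternatives. Between CX3CR1+ macrophages and F4/80- cells, Iglc2 lost its call without either CX3CR1+ pool and Iglc3 in 9 alternatives. These genes sit in the same mRNA family as the members and are not independent of them.

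Some genes that define B cells were at or near 0 in all libraries and others were not. Over all 16 libraries, Ms4a1, which encodes CD20, had at most 1.72 CPM and Cd79a, a chain of the B cell receptor, at most 2.49 CPM. They had no count in 7 and 1 libraries. Cd79a was highest in the first CD9+ pool of day 14, the library with the highest Igkc, and Ms4a1 in the first F4/80- pool of day 1. Cd22, an inhibitory receptor of B cells, had 0.403 to 6.84 CPM and Cd79b 0.201 to 6.62 CPM, and neither was at 0 in a library. Of 16 listed B cell genes 15 were in the table and 4 passed the filter. Their summed level was 43.0 to 47.5 CPM in CD9+ macrophages on day 14, against 19.4 to 29.4 CPM on day 1. Most of it was Bank1, an adaptor of B cell receptor signalling, with 30.5 and 31.9 CPM on day 14 and 21.0 and 13.9 CPM on day 1, and neutrophils of day 14 had 32.0 and 30.6 CPM of it. The sum was 16.9 to 35.2 CPM in CX3CR1+ macrophages, 21.9 to 32.5 CPM in F4/80- cells and 23.3 to 37.8 CPM in neutrophils. Its part in the levels of the members was not tested.

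Of the 4 tested B cell genes, 1 rose in CD9+ macrophages, where 8.15% of all genes were called. This was Cd79b, the other chain of the B cell receptor, which rose from a mean of 0.879 to 3.41 CPM (log2 fold change 1.94, SE 0.51, adjusted p = 0.018). Its call was lost without either day 14 pool, and its level in CX3CR1+ macrophages of day 14, where the members are low, was higher, 5.48 and 6.62 CPM. None was called over time in CX3CR1+ macrophages or F4/80- cells (5.88% and 3.27% of all genes were). With the term for pool number Cd22 was called in F4/80- cells, and with no filter or filterByExpr the B lineage factors Pax5 and Spib, which the filter removed, were called in CX3CR1+ macrophages. In neutrophils, where 14.2% of all genes were called, Cxcr5, a homing receptor, fell (log2 fold change -3.54, SE 0.88, adjusted p = 0.009), a call lost without the second pool of either day. Bank1 was higher in CD9+ macrophages than in CX3CR1+ macrophages (2.08, SE 0.24, adjusted p = 1.3e-05) and F4/80- cells (1.37, SE 0.23, adjusted p = 0.00094) on day 14. The median log2 fold change of the 4 genes over time was 0.41 in CD9+ and 0.41 in CX3CR1+ macrophages, 0.44 in F4/80- cells and -0.31 in neutrophils, beside medians of all genes within 0.03 of 0.

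Genes of the plasma cell list ranged from near 0 to 297 CPM. Mzb1, a chaperone of antibody assembly, had at most 5.51 CPM, Derl3, of protein disposal in the endoplasmic reticulum, at most 3.69 CPM, and Tnfrsf17, the survival receptor BCMA, at most 0.511 CPM with no count in 8 of 16 libraries. The highest Mzb1 values were 5.51 CPM in the second CD9+ pool and 5.12 CPM in the first F4/80- pool of day 14. Pou2af1, a coactivator of immunoglobulin genes, had at most 4.29 CPM, again in the second CD9+ pool of day 14. Tnfrsf17 was also highest in that pool, whereas Derl3 was highest in the second neutrophil pool of day 1. Edem1, of endoplasmic reticulum quality control, at 213 to 297 CPM, and Xbp1, the factor of the unfolded protein response that secretory cells need, at 86.2 to 231 CPM, were the 2 highest of the list and present in neutrophils as well. Others differed between populations: Sdc1 had 0.201 to 49.0 CPM, Prdm1 1.41 to 56.6 CPM, Irf4 0.503 to 56.7 CPM and Txndc5 2.52 to 124 CPM. The summed level of the 16 genes was 708 to 735 CPM in CD9+ macrophages on day 14 and 819.9 to 824 CPM on day 1. It was 811 to 829 CPM in CX3CR1+ macrophages, 681 to 725 CPM in F4/80- cells and 564 to 782 CPM in neutrophils, and its part in the members' levels was not tested.

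**Figure D4:**
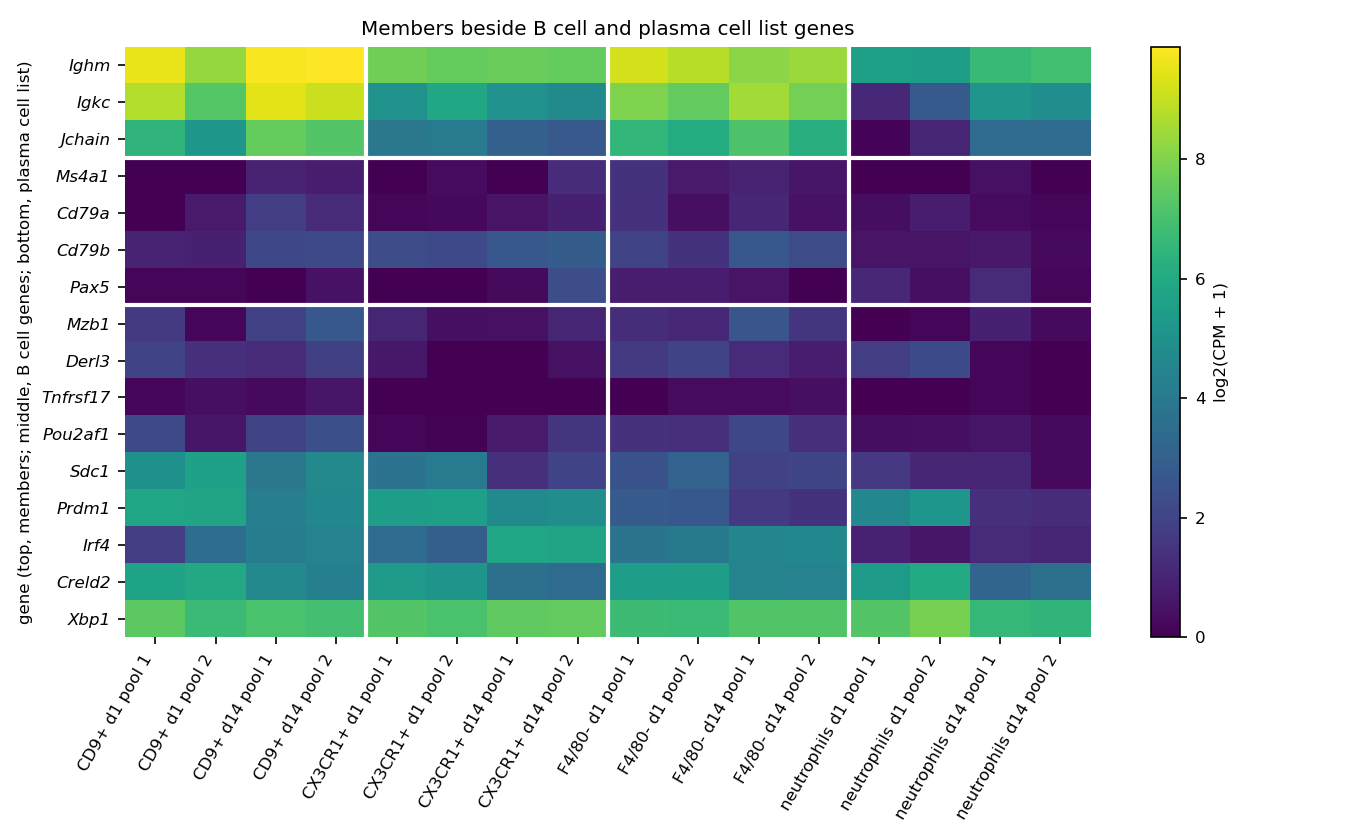
Ighm, Igkc and Jchain (top), 4 B cell genes (middle) and 9 genes of the plasma cell list (bottom) in each library, as log2(CPM + 1). Ms4a1, Cd79a and Tnfrsf17 have at most 1.72, 2.49 and 0.511 CPM in a library. Cd79a, but not Ms4a1, is highest in the first CD9+ pool of day 14, where Igkc is also highest. Tnfrsf17 is highest in the second CD9+ pool of that day, near the floor, and has no count in 8 of 16 libraries. Sdc1 is highest in CD9+ macrophages of day 1, and Xbp1 is at 86.2 to 231 CPM in all libraries.

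Of the 14 tested genes of the plasma cell list, 1 was called higher and 2 lower over time in CD9+ macrophages. Irf4, a factor of both plasma cells and macrophages, rose from a mean of 6.70 to 18.5 CPM (log2 fold change 1.52, SE 0.42, adjusted p = 0.023), a call lost without the first day 1 pool or either day 14 pool. Prdm1, which encodes Blimp-1, the master regulator of plasma cells, fell from 55.2 to 20.6 CPM (-1.42, SE 0.20, adjusted p = 0.00027), and Creld2, an endoplasmic reticulum stress gene, from 56.4 to 21.1 CPM (-1.42, SE 0.23, adjusted p = 0.00069). Creld2 also fell in the other 3 populations, in F4/80- cells with a call lost without either day 14 pool, and Prdm1 in F4/80- cells and neutrophils. In CX3CR1+ macrophages 2 rose and 2 fell: Irf4 (2.71, SE 0.41, adjusted p = 0.00047) and Pou2af1, at a mean of 1.24 CPM and with a call lost without either day 1 pool or the second day 14 pool, rose, whereas Sdc1, the plasma cell surface protein syndecan-1, fell from 14.4 to 2.24 CPM (-2.68, SE 0.47, adjusted p = 0.0015) together with Creld2. In F4/80- cells 0 rose and 2 fell and in neutrophils 0 rose and 5 fell, the latter including Txndc5, Xbp1, whose call was lost without the second day 1 pool, and Derl3, whose call was lost without the second day 14 pool. The shares of all genes called were 5.88%, 3.27% and 14.2% in these 3 populations. The median log2 fold change of the 14 genes over time was -0.16 in CD9+ macrophages, -0.26 in CX3CR1+ macrophages, -0.19 in F4/80- cells and -0.79 in neutrophils.

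On day 14, 4 genes of the plasma cell list were higher and 1 lower in CD9+ than in CX3CR1+ macrophages, where 14.1% of all genes were called. Sdc1 had 14.2 and 24.3 CPM in CD9+ macrophages against 1.501 and 2.98 CPM (log2 fold change 3.10, SE 0.47, adjusted p = 0.00016), and Tent5c, an RNA polymerase that lengthens the poly(A) tails of immunoglobulin mRNAs, had means of 42.8 and 11.4 CPM (1.92, SE 0.26, adjusted p = 4.9e-05). Derl3 and Fkbp11 were called at means of 1.95 and 0.948 CPM and lost the call in 13 of 21 and 5 of 22 alternatives. Irf4 was lower, a call lost without the first CD9+ pool. In CD9+ macrophages against F4/80- cells 3 were higher, Sdc1, Prdm1 and Tent5c, and 0 lower (7.62% of all genes called). Between CX3CR1+ macrophages and F4/80- cells, 3 were higher, Prdm1, Irf4 and Tnfrsf13b, and 1 lower, Fkbp11 (21.3% of all genes called), of which Fkbp11 lost the call without either CX3CR1+ pool and Irf4 without any one of the 4 libraries. Sdc1 was highest in CD9+ macrophages of day 1, with 30.0 and 49.0 CPM, where Ighm, Igkc and Jchain were lower than on day 14.

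Markers of other cells were examined as well, although the lineage gate also held antibodies to Ter119, of erythroid cells, and NK1.1, of NK cells. The summed level of 10 erythroid genes was higher on day 14 than on day 1 in all 4 populations, without overlap. It was 4.68 to 11.3 CPM and then 17.2 to 30.5 CPM in CD9+ macrophages, 7.20 to 17.9 and then 27.3 to 35.5 CPM in neutrophils, and 0.927 to 2.16 and then 10.8 to 12.2 CPM in F4/80- cells. In CX3CR1+ macrophages, whose Igkc and Jchain were lower on day 14, it was 7.10 to 7.88 and then 13.4 to 90.6 CPM. The second CX3CR1+ pool of day 14 stood apart, with 90.6 CPM, against 0.927 to 35.5 CPM in the other 15 libraries, and with the highest Pax5 (4.01 CPM) and Ebf1 (4.48 CPM), factors of the B lineage. Its Igkc (25.4 CPM) and Jchain (5.69 CPM) were the lowest of all libraries but the 2 neutrophil libraries of day 1. Hbb-bs, a haemoglobin chain, was called higher over time in CX3CR1+ macrophages (log2 fold change 4.06, SE 0.78, adjusted p = 0.0029), and not without that pool. The sum of 7 T and NK cell genes was 1.37 to 32.8 CPM, mostly Nkg7, a granule protein of cytotoxic cells, which rose in CD9+ macrophages from a mean of 6.22 to 22.9 CPM (log2 fold change 1.86, SE 0.32, adjusted p = 0.0013) and was higher there than in CX3CR1+ macrophages on day 14 (5.05, SE 0.42, adjusted p = 4.1e-07). Of 5 early B cell genes in the table, Il7r and Dntt were tested, and neither was called over time in CD9+ macrophages or F4/80- cells. Il7r fell in CX3CR1+ macrophages and neutrophils, with calls lost in 2 of 22 alternatives each. Dntt was called higher in CX3CR1+ macrophages at a mean of 0.773 CPM, a call lost without any one of their 4 libraries. In F4/80- cells Dntt, which adds bases at the joints of antibody genes in B cell precursors, had 2.82 to 9.29 CPM. Siglech, of plasmacytoid dendritic cells, had 1.57 and 0.973 CPM there on day 1 and 4.67 and 3.98 CPM on day 14, which was not called. Of 5 tested genes of the plasmacytoid dendritic list, Smim5 rose in CD9+ macrophages, CX3CR1+ macrophages and neutrophils and Upb1 in CX3CR1+ macrophages and F4/80- cells, and 0 fell. Of all genes, 8.15% were called in CD9+ macrophages, 5.88% in CX3CR1+ macrophages, 3.27% in F4/80- cells and 14.2% in neutrophils. The call of Upb1 in F4/80- cells was lost in 11 of 22 alternatives, among them the fit with a term for pool number, and that of Smim5 in CD9+ macrophages in 2. The part of these cells in the members' levels was not tested.

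Receptors for antibodies and factors that act on B cells changed in both directions. Of 10 tested, 2 rose and 1 fell in CD9+ and in CX3CR1+ macrophages, and 1 rose and 1 fell in F4/80- cells and in neutrophils. Of all genes, 8.15%, 5.88%, 3.27% and 14.2% were called in these populations in that order. Fcgr1, the high-affinity IgG receptor, fell from a mean of 138 to 36.9 CPM (log2 fold change -1.91, SE 0.43, adjusted p = 0.0069), a call lost without the first day 14 pool, and fell also in CX3CR1+ macrophages and neutrophils, with calls that 5 and 2 of 22 alternatives lost. Il6, a cytokine that supports plasma cells, rose from 3.52 to 16.9 CPM (2.29, SE 0.30, adjusted p = 0.00017), and Fcgrt, the receptor that recycles IgG, rose from 8.42 to 20.4 CPM (1.29, SE 0.37, adjusted p = 0.026), a call lost without 3 of the 4 libraries. Il6 also rose in F4/80- cells, from 58.8 to 129.7 CPM (1.14, SE 0.24, adjusted p = 0.011), a call lost without any one of their 4 libraries. Tnfsf13b, the B cell survival factor BAFF, rose in CX3CR1+ macrophages (1.66, SE 0.29, adjusted p = 0.0014) and in neutrophils, to 78.7 CPM (1.42, SE 0.22, adjusted p = 0.00023). The highest receptor levels were those of Fcer1g, the shared signalling chain, and Fcgr3, which were not called over time in any population.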

How the data were processed

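RNA of sorted cells was made into SMART-Seq Stranded libraries and sequenced in pairs. According to the methods, the authors used Cutadapt for trimming and STAR, on mm10, for alignment and for counting reads in exons of Gencode M23. The deposited values are raw counts per gene, without normalization. The strand setting and the filter that left 20200 genes are not given in the sources used here. Groups came from the labels (population and day). Total counts were 9233952 to 19814119 per library, and CPM used TMM factors.

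Genes reaching a group mean of 3 CPM were fitted in R 4.3.3 with edgeR 4.0.16 (glmQLFit, glmQLFTest), with one mean for each of the 8 groups, and adjusted p-values are Benjamini-Hochberg over all 12031 genes. The filter, tool and thresholds followed the methods, with the mean of a group taken for the filter. Shares have Wilson intervals at 95% (SciPy 1.17.1). Sequences, exon lengths, overlaps and 50-base windows came from Gencode M21, whose extents of the members match those in the files. The p-values measure the spread between pools. The alternatives were DESeq2 1.42.0, other filters and scalings, a term for pool number, and leaving out each library. The genes named are the 6 members, the genes of the lists that were called or highest, and for 4 members the 5 genes with the highest correlation. The members, the lists and these rules were chosen with earlier results of these data known. The pool numbers mark no stated pairing, though libraries of a day with the same number may share mice. The main fit had no term for this. The functional variable region genes were not analysed here. A gene of the B cell list is not reported here.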

Additional observations from a re-analysis of the deposited data

Results flagged for a closer look

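For 3 members the change over time went in opposite directions in 2 populations, with every library of day 14 above every library of day 1 in one and below in the other. Of all genes tested, 26.7% lay above in CD9+ macrophages and 33.1% in neutrophils. Below lay 29.9% in CX3CR1+ macrophages and 30.6% in F4/80- cells. The share of all genes with opposite directions was not counted, so nothing is read from the number of members. Igkc changed by a log2 fold of 1.11 in CD9+ macrophages and -0.68 in CX3CR1+ macrophages, a difference of 1.80, and the difference between CX3CR1+ macrophages and neutrophils was -3.85. Jchain differed by 2.63 between CD9+ and CX3CR1+ macrophages and by -5.46 between CX3CR1+ macrophages and neutrophils. Ighm differed by 1.55 between CD9+ macrophages and F4/80- cells and by -1.99 between F4/80- cells and neutrophils. None of these differences was tested, since the members were chosen for their pattern over these groups.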

How the results depend on the processing

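With DESeq2, no filter, filterByExpr, library size scaling, RLE factors or a term for pool number, the counts of genes called stayed within 1.5 times those of the edgeR fit in all 7 comparisons (DESeq2 called 1121 over time in CD9+ macrophages, against 981), as did the counts of B cell and plasma cell genes called. Leaving out 1 library moved the genes called over time to between 571 (without the first CD9+ pool of day 14) and 1748 (without the first CD9+ pool of day 1) in CD9+ macrophages, 432 to 882 in CX3CR1+ macrophages and 173 to 536 in F4/80- cells, and those between CD9+ macrophages and F4/80- cells on day 14 to 533 to 1086. The count of B cell and plasma cell genes called ranged from 2 to 8 over time in CD9+ macrophages, 1 to 2 in F4/80- cells and 3 to 7 in neutrophils. On day 14 it ranged from 3 to 7 between CD9+ and CX3CR1+ macrophages and from 2 to 5 between CX3CR1+ macrophages and F4/80- cells. The cause was not tested beyond the smaller number of libraries.

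With the replicate block, a term for pool number within each day, 982 genes were called over time in CD9+ macrophages, 732 in CX3CR1+ macrophages, 411 in F4/80- cells and 1698 in neutrophils. Deviations from the group means of libraries with the same number had correlations of 0.012 to 0.141 within a day. Such values cannot show whether these libraries hold cells of the same mice. In F4/80- cells the log2 fold change of Ighg1 over time, -2.66, was 2.35 with the block and ranged from -3.66 to 9.27 when 1 library was left out, 9.27 being without the second day 1 pool. For Ighg2b in CX3CR1+ macrophages that range was -4.32 to 8.55 and for Ighg1 in neutrophils 0.00 to 8.38. Each rests on 1 pool. Of the members' log2 fold changes under the other settings, 230 moved by less than their spread, 9 by more and 1 turned, the Ighg1 value with the block. Leaving out 1 library moved 34, turned 3 and left 603 within the spread. Only values of at least 1 in size could count as turned, and a fall to 0.00 counted too. Smaller values that changed sign were sorted by their spread alone. Between CD9+ macrophages and F4/80- cells on day 14, Ighg1 went from 0.49 to -0.22 under another setting. Without the first CD9+ pool it was -4.22. The planned share without the most abundant variable region genes was not run, since those genes were not analysed here.

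With 2 pools a group, a change shared by both pools and one carried by a few mice of a pool cannot be told apart. The day 1 libraries had the higher median total, 17614360 counts against 10457788.5 on day 14. Values at a few counts are still limited by depth, such as those of the IgG genes in most day 1 libraries. Other day 1 libraries held up to 1792 counts of Ighg1, 1675 of Ighg2b and 3788 of Ighg2c.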

Other observations

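The table held 4 variable region genes of the immunoglobulin heavy chain, all annotated as pseudogenes. The pattern of Ighv8-10, Ighv1-41 and Ighv1-73 was not that of the members. Ighv8-10 had 46 and 51 counts in neutrophils on day 1 and 48 and 57 on day 14, against at most 7 in a library of the other populations. Ighv1-41 was also highest in neutrophils of day 14, with 34 and 46 counts, and had 0 to 33 counts in the other populations. Ighv1-73 had at most 15 counts, again in neutrophils of day 14. Neutrophils had the lowest Ighm of each day.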
